A study of Mus musculus with 10 samples.

Results

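A set of 10 genes that the transcription factor Nrf2 is known to switch on was followed in spleen erythroblasts, the nucleated precursors of red blood cells, from mice that lack Nrf2, the miR-144/451 microRNA cluster, or both. They are Slc7a11, Gclc, Gclm, Gsr, Txnrd1, Srxn1, Nqo1, Pir, Hmox1 and Osgin1, out of 53465 genes in the deposited count table. Each matched 1 Ensembl identifier, and all 10 were among the 14110 genes that passed a filter on low counts. The genes were chosen by name, with no threshold on a value, but with earlier results of the same counts in view. Those results included the counts of Pir in the 4 genotypes and of Srxn1 in double-null and Nrf2-null cells. These are therefore given as a description with no p-value. Whether the fit called them is stated for completeness, and nothing is read from those calls.

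RNA was sequenced from 10 C57BL/6 libraries, all taken from spleens 11 days after 5-fluorouracil (5-FU), a drug that kills dividing blood precursors and forces the tissue to rebuild its red cells. The genotypes were Nrf2/miR-144/451-/- (double-null, n = 3), Nrf2-/- (Nrf2-null, n = 3), miR-144/451-/- (miR-144/451-null, n = 2) and wild type (n = 2). How the alleles were made, and whether each library came from a separate mouse, is not given in the sources used here, so every p-value refers to spread between libraries, which may be technical. The comparisons ask how far these genes depend on Nrf2 with and without the cluster, and what loss of the cluster does to them with and without Nrf2.

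Nrf2 is held in the cytoplasm by Keap1 and destroyed, unless oxidants or electrophiles disable Keap1. It then enters the nucleus, pairs with a small Maf protein and binds antioxidant response elements near its target genes. In red cell precursors, which handle iron, heme and oxygen, these targets supply glutathione, keep thioredoxin and peroxiredoxins reduced, and break down quinones and heme. Bach1, a repressor that releases DNA when heme binds it, competes for many of the same elements.

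Libraries held 13087827 to 15131036 counts. Xist and Y-linked counts marked 3 libraries as female (double-null replicate 3 and the wild type pair) and 7 as male, so sex and genotype cannot be told apart in either comparison with wild type. Only the double-null group held both sexes. A sex term added to the fit therefore rested on double-null replicate 3 against replicates 1 and 2 of that group. Where a call ended with that term, sex and lost precision cannot be told apart, and no effect of sex is read from it. Erythroblast markers summed to 93070 to 162100 normalised CPM (a gene's count relative to its library's TMM-scaled total) and all 12 were detected. Markers of macrophages summed to 83.1 to 1079 CPM, and those of B cells to 101 to 1006 CPM. Nrf2-null replicate 3 stood apart with the 1079 CPM of macrophage markers, against 83.1 to 397 CPM in the other 9 libraries. In such bulk samples, fewer cells of a type and less RNA per cell cannot be told apart. Nfe2l2, which encodes Nrf2, had 668 to 843 counts in the 6 libraries labelled as lacking it and 780 to 1468 in the other 4. Since a count summed over Nfe2l2 would miss a deleted exon, it is no check of the Nrf2 labels. Mir451a had 0 counts in all 10 libraries, so it checks no label. Mir144 had 0 counts in every double-null and miR-144/451-null library. It had 9 to 16 counts in Nrf2-null libraries and 12 and 17 counts in those of wild type.

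The element Nrf2 binds was looked for in the promoters, because it is the sequence through which these genes are known to answer to Nrf2. RefSeq promoters (GRCm38.p6, 250 bases before to 50 after a start site) were matched for 7 of the 10 genes, all but Gclc, Gsr and Hmox1. The core TGACNNNGC, searched on both strands, occurred in 4 of these 7 genes: Pir, Srxn1, Gclm and Txnrd1. It occurred in 14% of all 27025 genes in the table and in 12.4% of the 32851 promoters. Of the members' 9 promoters 4 held it. The runs below, 1 for each of these genes, read 5′ to 3′ on the minus strand, with the core in capitals. The Pir core shown overlaps the AP-1 element TGACTCA.
Pir, chrX:164269207-164269236: gtttgggggagTGACTCAGCctctctatgc
Srxn1, chr2:152105542-152105571: gtgtctcactcTGACCTAGCtgcccactgc
Gclm, chr3:122245413-122245442: ctcgtgagagtTGACGGTGCgcccgggagc
Txnrd1, chr10:82859104-82859133: ccgtgtcagaaTGACAAAGCaaaaatccag
A match is a description and no site of binding, and its absence from Nqo1, Slc7a11 and Osgin1 says only that these letters are not in these windows.

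The deposited FPKM values (counts relative to gene length and library total) allow levels to be compared between genes. Gclm and Gclc, the modifier and catalytic subunits of glutamate-cysteine ligase, which carries out the first step of glutathione synthesis, were the most abundant at 114 ± 12.9 and 94.1 ± 15.6 FPKM (SD, n = 10 libraries). Gclm lay above Gclc in all 10 libraries, and Gclc above Hmox1 in 9. Hmox1 (42.5 ± 31.6 FPKM), Nqo1 (25.5 ± 8.15), Srxn1 (24.2 ± 18.1) and Gsr (21.2 ± 7.26) followed. The order among these 4 was not stable: Hmox1 lay above Nqo1 in 6 of 10 libraries, Nqo1 above Srxn1 in 5, and Srxn1 above Gsr in 5. Txnrd1 came next at 12.6 ± 3.43 FPKM and Pir at 3.47 ± 2.59, each above the next gene in all 10 libraries. Slc7a11 (1.20 ± 0.525 FPKM) and Osgin1 (0.942 ± 0.528) were the scarcest.

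**Figure D1:**
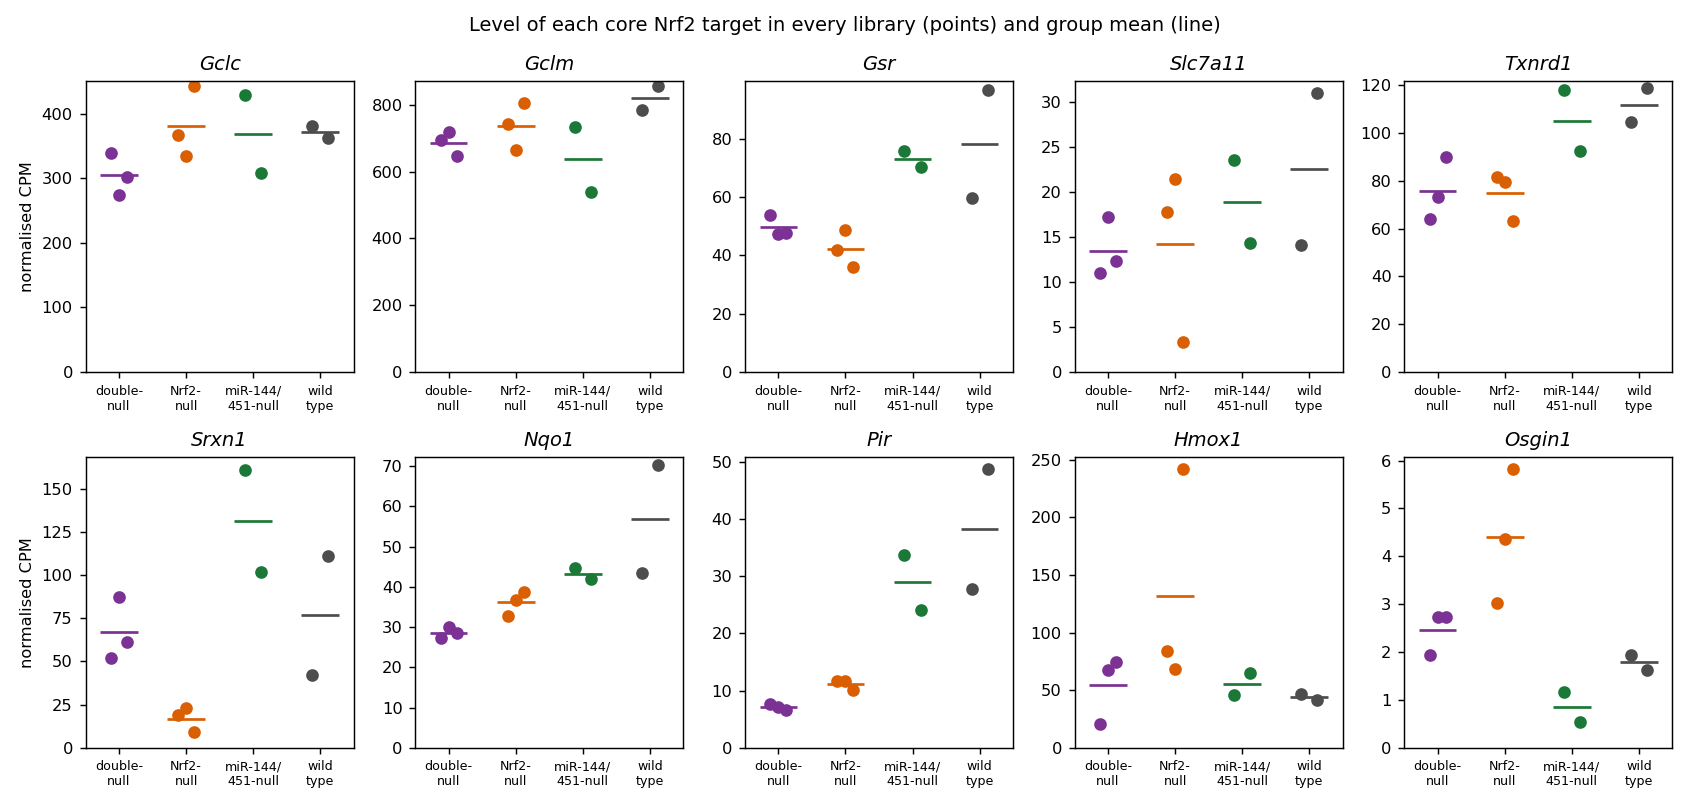
Level of each of the 10 genes in normalised CPM (vertical axis, from 0) in every library (points), with the group mean (line), for double-null, Nrf2-null, miR-144/451-null and wild type. Pir, Nqo1, Gsr and Txnrd1 sit lower in all 6 libraries without Nrf2 than in all 4 with it, while Gclc and Gclm overlap.

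Nqo1, Gsr and Txnrd1 stood lower in every library without Nrf2 than in any library with it. For each of these genes all 6 libraries without Nrf2 (double-null and Nrf2-null) lay below all 4 with it (miR-144/451-null and wild type), which was so for 1.25% of all genes tested. Pir, whose counts the choice of genes had used, lay so too, which is given as a description only. Srxn1 joined them within each pair of groups: 5 members, Pir among them, lay wholly below in Nrf2-null against wild type (20.1% of all genes did) and the same 5 in double-null against miR-144/451-null (12.4% of all genes). Gclc, Gclm and Slc7a11 overlapped in both pairs. B cell markers also stood lower in each pair: their sum was 101 to 182 CPM in double-null against 228 to 502 CPM in miR-144/451-null, and 434 to 553 CPM in Nrf2-null against 624 to 1006 CPM in wild type libraries. All 8 had negative log2 fold changes in both comparisons, none was called, and their part in the members' values was not tested. Other marker sums were separate in 1 pair only. In double-null against miR-144/451-null, erythroblast (132000 to 162100 against 93070 to 105600 CPM) and neutrophil sums (1109 to 1206 against 358 to 947 CPM) were higher. In Nrf2-null against wild type, macrophage (323 to 1079 against 190 to 195 CPM) and NK cell sums were higher, and endothelial and stromal sums lower. Their part was not tested either. Osgin1 lay wholly above in both pairs of groups, and Hmox1 in Nrf2-null against wild type, as did 15.7% of all genes in Nrf2-null against wild type and 12.1% in double-null against miR-144/451-null. After adjustment over all 14110 genes the fit, edgeR's quasi-likelihood test at an adjusted p under 0.05, called 1 member in each comparison, Pir. It was lower in Nrf2-null than in wild type, where 0.0638% of genes were called lower (0.191% in either direction), and in double-null than in miR-144/451-null, where 0.0142% were called lower (0.0638% in either direction). The first call ended with a sex term and when Nrf2-null replicate 1 or 2 or wild type replicate 3 was left out, and the second with a sex term and when double-null replicate 1 or 3 was left out, each time leaving 0 members. Nothing is read from the calls of Pir or from its part in these counts of members, since the choice of genes had used its values. Srxn1 stands under the same limit, since its Nrf2-null and double-null counts had been used as well. Averaged over both comparisons 2 members were called lower, Pir and Gsr, where 0.22% of genes were called lower and 0.588% in either direction. At an unadjusted p under 0.05 there were 7 members in Nrf2-null against wild type and 5 in double-null against miR-144/451-null, where 12.1% and 10.7% of all genes passed. Both counts include Pir, and the first includes Srxn1. They also include members with positive log2 fold changes, Hmox1 and Osgin1 in the first and Osgin1 in the second. The median log2 fold change of the 10 genes was -0.62 in Nrf2-null against wild type (all genes -0.02) and -0.48 in double-null against miR-144/451-null (all genes -0.02). These 2 comparisons share no library, but the members were chosen with results known, so neither median was tested. Scaling by library totals alone, without TMM factors, shifts the median of all genes by -0.10 and -0.21 in these comparisons and by -0.16 in their average, and by 0.12 where miR-144/451-null cells were set against wild type. The fold changes given here carry TMM factors, under which the medians of all genes lay between -0.02 and 0.02.

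Among the genes of glutathione supply and synthesis, none passed the test on loss of Nrf2. Slc7a11 encodes xCT, which imports cystine, the source of the cysteine in glutathione. It stood at 11.0, 17.2 and 12.3 CPM in double-null, 17.8, 21.4 and 3.29 in Nrf2-null, 23.6 and 14.3 in miR-144/451-null and 14.1 and 30.9 CPM in wild type libraries. The groups overlapped, and the lowest value belonged to Nrf2-null replicate 3. Its log2 fold change was -0.66 ± 0.63 (SE) in Nrf2-null against wild type and -0.19 without that replicate. In double-null against miR-144/451-null it was -0.49 ± 0.63 (edgeR adjusted p = 0.684 and 0.8 in the 2 comparisons). In the transcripts of Slc7a11, 4.27% of 31-mers also occur in other annotated genes.

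Gclc, the catalytic subunit, stood at 339, 274 and 302 CPM in double-null, 367, 335 and 442 in Nrf2-null, 429 and 309 in miR-144/451-null and 381 and 363 CPM in wild type libraries. Gclm, the modifier subunit, stood at 694, 720 and 647 CPM in double-null, 743, 665 and 807 in Nrf2-null, 735 and 540 in miR-144/451-null and 786 and 856 CPM in wild type libraries. The groups overlapped for both subunits in both comparisons. Averaged over the comparisons, the log2 fold change on loss of Nrf2 was -0.12 for Gclc (95% interval -0.43 to 0.19) and -0.02 for Gclm (-0.31 to 0.26), computed from the SE and 6 residual degrees of freedom. For Gclm, 6.82% of its 31-mers also occur in other annotated genes and 4.71% of its exonic bases overlap 2 predicted genes, so some of its reads are uncertain.

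Gsr, glutathione reductase, which returns oxidised glutathione to its reduced form with NADPH, was lower without Nrf2. Gsr levels were 53.8, 47.4 and 47.6 CPM in double-null against 75.8 and 70.5 CPM in miR-144/451-null libraries. In Nrf2-null libraries they were 42.1, 48.8 and 36.0 CPM against 59.9 and 96.8 CPM in wild type. No library without Nrf2 reached any library with it. Gsr had a log2 fold change of -0.56 ± 0.20 in double-null against miR-144/451-null and -0.89 ± 0.20 in Nrf2-null against wild type (edgeR adjusted p = 0.374 and 0.167). Averaged, it was -0.72 ± 0.14 (edgeR adjusted p = 0.0471), close to the threshold: 12 of 18 alternatives ended the call, among them a sex term (edgeR adjusted p = 0.193) and leaving out any 1 library other than miR-144/451-null replicate 1 or wild type replicate 1, and none of the 18 changed its sign.

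In the thioredoxin branch, Txnrd1, the cytosolic thioredoxin reductase, lay lower in each library without Nrf2 than in any with it, and did not pass edgeR's test. It stood at 63.9, 73.3 and 89.8 CPM in double-null against 118 and 92.4 CPM in miR-144/451-null libraries. In Nrf2-null libraries it stood at 81.5, 79.5 and 63.0 CPM against 105 and 119 CPM in wild type. The gap was narrow in the first pair, between double-null replicate 3 and miR-144/451-null replicate 3. The log2 fold changes were -0.47 ± 0.18 and -0.58 ± 0.18, and -0.53 ± 0.13 averaged (edgeR adjusted p = 0.404, 0.319 and 0.107). The averaged Txnrd1 value passed with DESeq2 (adjusted p = 0.0299) and in edgeR with library totals alone (adjusted p = 0.0432). Those settings called 545 and 109 of all genes in the average, against 83 in the main fit.

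Srxn1, sulfiredoxin, which repairs peroxiredoxins whose active cysteine has been overoxidised, had the widest spread between genotypes in this branch. Its levels were 18.8, 22.8 and 8.88 CPM in Nrf2-null against 42.1 and 111 CPM in wild type libraries. In double-null libraries they were 52.3, 87.1 and 61.4 CPM against 161 and 102 CPM in miR-144/451-null libraries. Each pair of groups was separate, but all double-null libraries lay above the lower wild type library. On loss of Nrf2 its log2 fold change was -2.18 ± 0.47 in Nrf2-null against wild type and -0.97 ± 0.46 in double-null against miR-144/451-null. The edgeR fit called neither. DESeq2 called Srxn1 lower in Nrf2-null against wild type (log2 fold change -2.17). It called 134 of all genes there, against 27 in the main fit. The choice of genes had used the Nrf2-null and double-null counts of Srxn1. No p-value is therefore given for these 2 comparisons, and nothing is read from the calls.

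Nqo1 encodes a quinone reductase that spares cells the redox cycling of quinones and is widely used as a readout of Nrf2 activity. Nqo1 stood at 27.2, 30.01 and 28.6 CPM in double-null against 44.6 and 41.8 CPM in miR-144/451-null libraries. In Nrf2-null libraries it stood at 32.8, 36.8 and 38.7 CPM against 43.4 and 70.2 CPM in wild type. The groups did not overlap. What remained was 66.2% of the miR-144/451-null level in double-null and 63.7% of the wild type level in Nrf2-null cells. Nqo1 log2 fold changes were -0.59 ± 0.19 and -0.65 ± 0.18, and -0.62 ± 0.13 averaged (edgeR adjusted p = 0.326, 0.303 and 0.0702). With DESeq2 the averaged fall of Nqo1 passed (adjusted p = 0.00966), as did 545 of all genes, against 83 in the main fit.

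Pir encodes pirin, an iron-binding nuclear protein, and had the most negative log2 fold change of the 10 genes in double-null against miR-144/451-null cells. Pir stood at 7.58, 7.14 and 6.63 CPM in double-null against 33.6 and 24.2 CPM in miR-144/451-null libraries, a 4.05-fold lower level. In Nrf2-null libraries it stood at 11.7, 11.7 and 10.2 CPM against 27.7 and 48.8 CPM in wild type, a 3.41-fold lower level. The highest library without Nrf2 (11.7 CPM) was below the lowest with it (24.2 CPM). Pir lies on the X chromosome, and the wild type libraries were female. In male libraries alone, double-null against miR-144/451-null, the log2 fold change was -1.96, against -2.02 in all libraries.

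Osgin1 and Hmox1 had positive log2 fold changes in Nrf2-null against wild type, and neither passed the test. Osgin1, an oxidative stress induced growth inhibitor, was scarce, with 9 to 76 counts a library. Its levels were 1.93, 2.74 and 2.74 CPM in double-null against 1.17 and 0.528 CPM in miR-144/451-null libraries. In Nrf2-null libraries they were 3.03, 4.36 and 5.81 CPM against 1.94 and 1.63 CPM in wild type. In both pairs the groups without Nrf2 lay above, with log2 fold changes of 1.55 ± 0.46 and 1.29 ± 0.43, and 1.42 ± 0.31 averaged (edgeR adjusted p = 0.317, 0.346 and 0.0843). DESeq2 called the average higher (adjusted p = 0.00435), where it called 545 of all genes against 83 in the main fit.

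Hmox1, heme oxygenase, which opens the heme ring and frees its iron, is a target of both Nrf2 and Bach1 and is abundant in macrophages that digest red cells. Hmox1 stood at 84.1, 68.6 and 242 CPM in Nrf2-null against 46.9 and 41.2 CPM in wild type libraries. In double-null libraries it stood at 20.4, 67.4 and 74.6 CPM against 45.5 and 64.8 CPM in miR-144/451-null. Nrf2-null lay above wild type, while the second pair overlapped. For Hmox1 the log2 fold change was 1.58 ± 0.66 in Nrf2-null against wild type, 0.79 without Nrf2-null replicate 3, and -0.03 ± 0.63 in double-null against miR-144/451-null (edgeR adjusted p = 0.401, 0.664 and 0.991). The summed level of macrophage markers was 397, 323 and 1079 CPM in Nrf2-null against 195 and 190 CPM in wild type, and 83.1, 224 and 365 CPM in double-null against 145 and 261 CPM in miR-144/451-null libraries. Both Hmox1 and this sum were highest in Nrf2-null replicate 3 and lowest in double-null replicate 1. All 12 markers had counts in each library, and none was called in Nrf2-null against wild type. The part of these markers in the Hmox1 values was not tested.

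**Figure D2:**
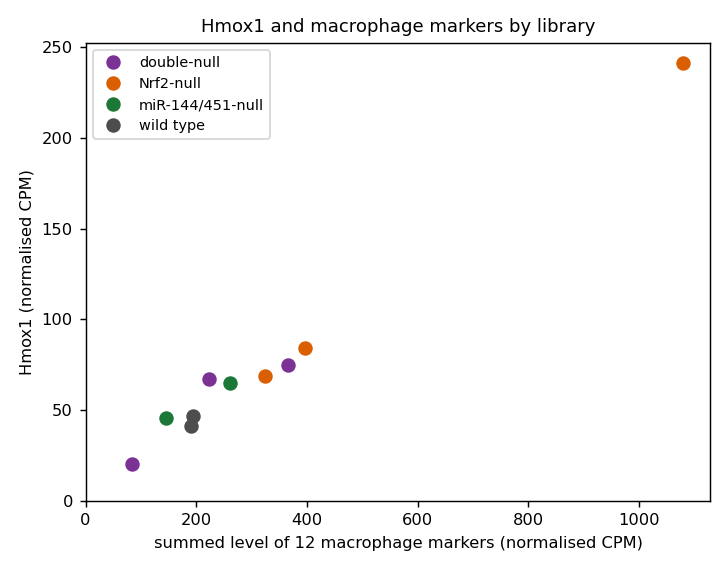
Hmox1 in normalised CPM (vertical axis) against the summed level of 12 macrophage markers in normalised CPM (horizontal axis), 1 point per library, coloured by genotype. Nrf2-null replicate 3 is highest on both axes (242 and 1079 CPM) and double-null replicate 1 lowest on both (20.4 and 83.1 CPM).

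**Figure D3:**
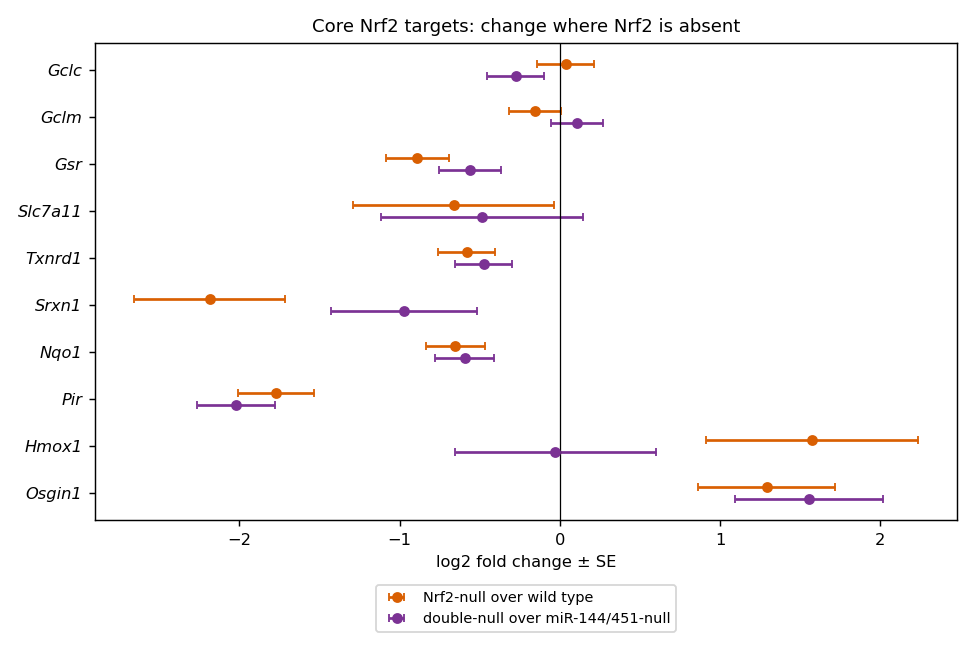
Log2 fold change with its SE (horizontal axis) of each gene (rows) in Nrf2-null over wild type and in double-null over miR-144/451-null. Srxn1 (-2.18 and -0.97) and Pir (-1.77 and -2.02) lie furthest to the left, Gclc and Gclm near 0, and Osgin1 to the right in both.

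Where the miR-144/451 cluster was lost, edgeR called no member other than Srxn1, whose difference the choice of genes had used. In double-null against Nrf2-null the fit called 1 member higher, Srxn1, and none lower, where 14.4% of all genes were called higher and 12.9% lower (27.3% in either direction). Nothing is read from that call, since the difference was known when the gene was chosen. Loss of the cluster alone, miR-144/451-null against wild type, had no member called by edgeR, where 4.63% of genes were called. There 1 member, Osgin1, had an unadjusted p under 0.05, and DESeq2 also called 0 members. The median log2 fold change of the 10 genes was -0.21 in double-null against Nrf2-null and -0.17 in miR-144/451-null against wild type, against 0.02 over all genes in each.

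For Srxn1, the 52.3, 87.1 and 61.4 CPM in double-null were 3.98-fold above the 18.8, 22.8 and 8.88 CPM in Nrf2-null libraries. The groups did not overlap, with Srxn1 wholly above in double-null as were 23.4% of all genes, and the log2 fold change of 1.99 ± 0.44 was 1.69 without Nrf2-null replicate 3 and 2.09 in male libraries alone. Markers of other cells differed between the same groups: in double-null against Nrf2-null all 8 B cell markers fell (summed level 101 to 182 against 434 to 553 CPM), and neutrophil markers, none of the 9 called, summed to 1109 to 1206 against 174 to 1171 CPM. Megakaryocyte markers summed to 128 to 177 CPM in double-null against 41.6 to 63.5 CPM in Nrf2-null, with 2 of 8 called higher and 1 lower, and their part in the Srxn1 values was not tested. In miR-144/451-null libraries Srxn1 stood at 161 and 102 CPM against 42.1 and 111 CPM in wild type, which overlapped (log2 fold change 0.78 ± 0.51, edgeR adjusted p = 0.481). The interaction, which asks whether losing the cluster had another effect without Nrf2 than with it, was 1.21 ± 0.66 for Srxn1. No member was called for the interaction, where 0.0638% of genes were called; none had an unadjusted p under 0.05, and DESeq2 also called 0.

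The sequences of the deleted microRNAs were set against the members' longest annotated 3′ UTRs (GENCODE M21), because a microRNA binds its targets mainly through bases 2 to 8, its seed. Srxn1 was the only member with a 7-mer matching the miR-451a seed, which occurred in 1.95% of 21173 genes with a 3′ UTR. Slc7a11 was the only member with a 7-mer matching the miR-144-3p seed, which occurred in 12.3%. Its 3′ UTR was also the longest of the 10, at 7364 bases, against 2184 for Srxn1. The mature sequences are from RefSeq (GRCm38.p6, plus strand) with the seed in capitals, and the UTR windows have the matching 7-mer in capitals.
miR-451a, chr11:78073186-78073207: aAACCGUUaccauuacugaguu
Srxn1 3′ UTR window: agcctttaagtAACGGTTctcaaaacctag
miR-144-3p, chr11:78073047-78073066: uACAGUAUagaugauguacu
Slc7a11 3′ UTR window: tggggacatctATACTGTgaaagtattttg
Slc7a11, whose seed match is for the other microRNA, had a log2 fold change of -0.07 ± 0.57 in double-null against Nrf2-null and -0.25 ± 0.69 in miR-144/451-null against wild type (edgeR adjusted p = 0.94 and 0.902). A match is a description, and binding was not measured.

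Pir lay below Nrf2-null in every double-null library (7.58, 7.14 and 6.63 against 11.7, 11.7 and 10.2 CPM), at a log2 fold change of -0.65 ± 0.22. Nqo1 and Osgin1 also lay below Nrf2-null in every double-null library, with log2 fold changes of -0.34 ± 0.17 and -0.83 ± 0.37 (edgeR adjusted p = 0.16 and 0.115). All-below patterns of this kind occurred in 21.8% of all genes. Hmox1 had a log2 fold change of -1.28 ± 0.57, and of -0.50 without Nrf2-null replicate 3 (edgeR adjusted p = 0.13 and 0.452), beside macrophage markers at 83.1 to 365 CPM in double-null against 323 to 1079 CPM in Nrf2-null, of which Timd4 alone of 12 was called (lower). The remaining members overlapped, with log2 fold changes of -0.32 ± 0.16 for Gclc, -0.10 ± 0.15 for Gclm, 0.23 ± 0.18 for Gsr and 0.02 ± 0.16 for Txnrd1. In miR-144/451-null against wild type, Gclm (-0.36 ± 0.18) and Osgin1 (-1.09 ± 0.50) lay below without overlap (edgeR adjusted p = 0.315 and 0.269), as did 22.8% of all genes. Log2 fold changes of the others were -0.40 ± 0.26 for Pir, -0.39 ± 0.20 for Nqo1, -0.10 ± 0.22 for Gsr, -0.09 ± 0.20 for Txnrd1, -0.01 ± 0.20 for Gclc and 0.32 ± 0.69 for Hmox1.

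**Figure D4:**
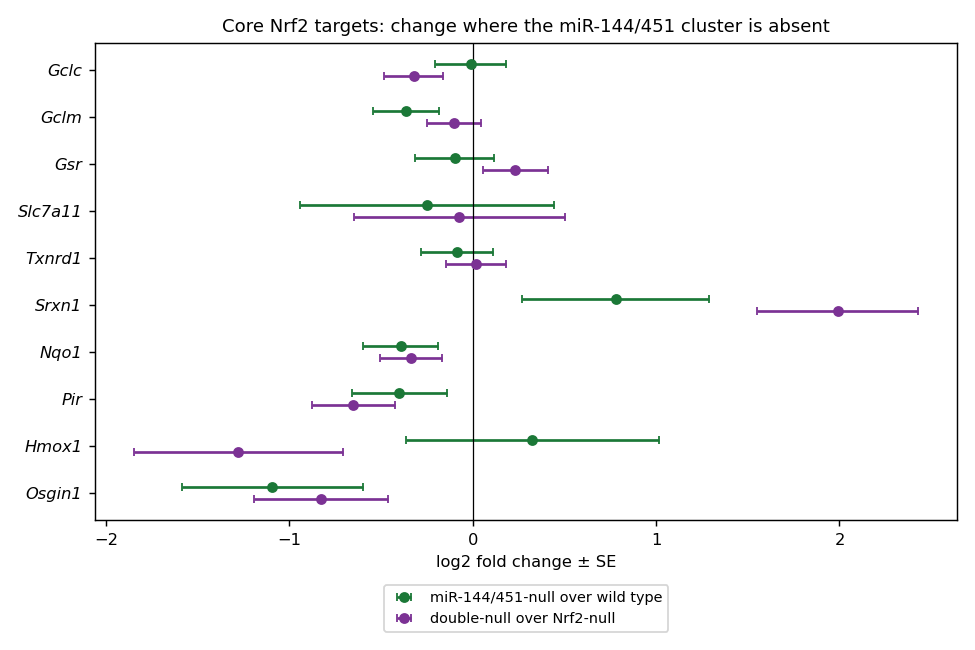
Log2 fold change with its SE (horizontal axis) of each gene (rows) in double-null over Nrf2-null and in miR-144/451-null over wild type. Srxn1 lies furthest to the right in both (1.99 and 0.78), and Txnrd1 lies close to 0 (0.02 and -0.09).

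The rest of the pathway was read from lists of other genes, chosen with results of these counts known. Of 22 tested other Nrf2 targets (30 listed), Esd, a hydrolase of S-formylglutathione, fell on loss of Nrf2 averaged over both comparisons (log2 fold change -0.95 ± 0.14, edgeR adjusted p = 0.0163). The call ended with a sex term (adjusted p = 0.123), a replicate block (0.0525) and without wild type replicate 3 (0.063). Esd averaged 58.5 ± 1.81 CPM in double-null, 35.9 ± 4.29 in Nrf2-null, 103 ± 19.8 in miR-144/451-null and 76.6 ± 26.5 CPM in wild type libraries. The other 21 did not pass, 19 of the 22 had a negative log2 fold change, and the list's median was -0.31 against -0.02 over all genes. In double-null against Nrf2-null, 7 of the 22 rose and 2 fell, where 14.4% of all genes were called higher and 12.9% lower. Of the 4 with the smallest p, 3 encode enzymes of the pentose phosphate pathway, which makes NADPH: Tkt (log2 fold change 0.86 ± 0.12), Pgd (1.12 ± 0.27) and Taldo1 (0.67 ± 0.17), and the other was the exporter Abcc4 (0.83 ± 0.12). In miR-144/451-null against wild type, 653 genes were called in all, but 1 with a sex term, 40 without wild type replicate 3 and 81 without miR-144/451-null replicate 1. There Tkt barely passed (0.60 ± 0.15, edgeR adjusted p = 0.0472). Its call held in 7 of 19 alternatives and ended in each of these 3, and no other gene of the list passed.

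Among 17 tested other glutathione genes none passed on loss of Nrf2, in either comparison or their average. In double-null against Nrf2-null, 4 rose and 3 fell, against 14.4% and 12.9% of all genes. Chac2, which degrades glutathione, fell to 53.5 ± 1.96 CPM in double-null, against 129 ± 19.99 CPM in Nrf2-null (log2 fold change -1.27 ± 0.18, edgeR adjusted p = 0.000682). It also fell in miR-144/451-null (48.6 ± 6.02 CPM) against wild type (121 ± 40.8 CPM), at -1.32 ± 0.22 (edgeR adjusted p = 0.00985). That call ended with a sex term (adjusted p = 0.254), with only the 2 groups in the fit (0.0605), and without miR-144/451-null replicate 1 (0.087) or wild type replicate 3 (0.084). Glrx2, a mitochondrial glutaredoxin, rose in double-null against Nrf2-null (log2 fold change 1.03 ± 0.17). Of the mitochondrial glutathione carriers, Slc25a39 rose (0.93 ± 0.19) and Slc25a40 fell (-0.81 ± 0.16) in that comparison. Of 7 tested cysteine supply genes, 1 rose and 1 fell there, against 14.4% and 12.9% of all genes, so the list's shares are near the background. Ahcy, of the methionine cycle, rose (0.89 ± 0.17) and the glutamine carrier gene Slc1a5 fell (-0.55 ± 0.15). The Slc1a5 call ended with a sex term and without double-null replicate 3 or any 1 Nrf2-null library. None of the 7 passed on loss of Nrf2.

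All 19 other thioredoxin genes were tested, and none passed on loss of Nrf2. In double-null against Nrf2-null 2 of 19 rose and none fell, against 14.4% and 12.9% of all genes, so the list's share is no higher than the background. They were Prdx1, a peroxiredoxin of the kind Srxn1 repairs, and Txnl1. Prdx1 averaged 120 ± 16.7 CPM in double-null against 55.2 ± 9.16 CPM in Nrf2-null (log2 fold change 1.12 ± 0.16, edgeR adjusted p = 0.000663), and Txnl1 rose by 0.37 ± 0.12, a call that held in 6 of 20 alternatives and ended with DESeq2, a sex term and without any 1 double-null library, Nrf2-null replicate 1 or 2, miR-144/451-null replicate 3 or wild type replicate 1. Of 7 heme and iron genes that Bach1 represses or heme switches on, 1 fell in double-null against Nrf2-null, where 12.9% of all genes did. This was Slc40a1, which encodes the iron exporter ferroportin (-0.84 ± 0.19, edgeR adjusted p = 0.00821). Without Nrf2-null replicate 3 its log2 fold change was -0.64. Macrophage markers summed to 83.1 to 365 CPM in double-null against 323 to 1079 CPM in Nrf2-null, and their part in the Slc40a1 values was not tested. No other gene of that list passed in any comparison.

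Of the 10 regulators tested, none passed on loss of Nrf2 or in miR-144/451-null against wild type. Nfe2l2 averaged 54.9 ± 6.99 CPM in double-null and 50.6 ± 4.78 CPM in Nrf2-null, against 83.9 ± 3.17 CPM in miR-144/451-null and 60.8 ± 3.80 CPM in wild type libraries. Its log2 fold change on loss of Nrf2 was -0.44 ± 0.10 averaged, and in miR-144/451-null against wild type 0.46 ± 0.16 (edgeR adjusted p = 0.0918 and 0.129). Bach1 rose in double-null (259 ± 55.6 CPM) against Nrf2-null (141 ± 5.01 CPM), at a log2 fold change of 0.87 ± 0.26 (edgeR adjusted p = 0.0319). Also in double-null against Nrf2-null, Bach2 (-1.61 ± 0.47), Nfe2 (-0.57 ± 0.18) and the stress factor gene Atf4 (-0.52 ± 0.14) fell. With 1 regulator higher and 3 lower among 10, these calls stand against 14.4% and 12.9% of all genes. They held in 15 of 20 alternatives for Bach1, 12 for Bach2, 13 for Nfe2 and 14 for Atf4. A sex term ended the calls of Bach2, Nfe2 and Atf4, and male libraries only those of Bach2 and Atf4. The replicate block ended those of Bach2 and Nfe2, and a fit of only the 2 groups that of Bach2. The Bach1 call ended without double-null replicate 1 or 2 or any 1 Nrf2-null library, and the Bach2 call without double-null replicate 1 or 3, Nrf2-null replicate 3 or wild type replicate 3. Those of Nfe2 and Atf4 ended without double-null replicate 2 or 3 or Nrf2-null replicate 1 or 2, and that of Nfe2 also without double-null replicate 1. Bach2 is abundant in B cells, whose markers fell in the same comparison; their part in its values was not tested. Keap1 (-0.16 ± 0.14), Nfe2l1 (-0.26 ± 0.13), Mafg (-0.30 ± 0.21), Mafk (0.04 ± 0.23) and Maff (-0.20 ± 0.59) did not pass there.

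Over the 10 libraries, the genes whose log2 CPM ran most like that of Pir among 8904 genes were Nup35, Zfp217 and Nqo1 (Pearson r of 0.937, 0.934 and 0.92). For Nqo1 they were Rnf145, Pir and Stoml1 (0.948, 0.92 and 0.92). For Srxn1 they were Mlx, Ksr1 and Mnat1 (0.974, 0.968 and 0.967). For Hmox1, named after its values were seen, they were Cadm1, the macrophage marker Mertk and Selenop (0.984, 0.984 and 0.983). These r describe likeness over the same 10 libraries of 4 genotypes, which share depth and composition, and carry no p.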

How the data were processed

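RNA sequencing of 10 mouse erythroblast libraries was analysed. Miltenyi Biotec isolation, Trizol extraction and a VAHTS library kit were used, per the labels' protocols. The authors deposited raw counts per Ensembl gene and FPKM values. The deposited FPKM equalled the count divided by a gene length and the library total to within 0.1% in all 196970 values. Per the submitters' processing notes, the tools were TopHat2, HISAT2 2.1.0, Bowtie2 2.2.3 and CASAVA and the build was mm9, with no role stated. How genes were counted, with which annotation and whether by strand, is not given in the sources used here, so overlapping genes could not be told apart. Identifiers matched GENCODE M21 in 99.6% of cases, and printed coordinates belong to RefSeq sequences on GRCm38.p6, not to the mm9 of the files.

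Library totals were 13087827 to 15131036 counts. Replicates differed beyond sampling noise (chi-square per degree of freedom 15.5 to 27.2), and none was merged. Counts of all 10 libraries entered 1 edgeR 4.0.16 fit (R 4.3.3) with a coefficient per genotype, TMM factors, filterByExpr (minimum count 10; 14110 genes kept) and its robust two-sided quasi-likelihood test, with Benjamini-Hochberg adjustment over all genes and a threshold of 0.05. The contrasts were Nrf2-null against wild type, double-null against miR-144/451-null, their average, miR-144/451-null against wild type, double-null against Nrf2-null, and the interaction. Comparisons that share a group share its libraries. Levels are TMM-normalised CPM, per library or as mean ± SD. Each log2 fold change has its SE.

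The members and lists were chosen with earlier results of these data known. By the naming rule, all members and regulators are named, of each other list up to 4 called genes with the smallest p in a comparison, and the 3 genes most like Pir, Nqo1 and Srxn1. The alternatives were DESeq2 1.42.0, library totals alone, median-ratio factors, no low-count filter, a stricter one (50 counts in 2 libraries), a replicate block, a sex term, male libraries only, only the 2 groups compared, globin genes removed, and each library left out. Their effect on the named list genes was computed after the data were seen. The fits were also run on counts simulated from each gene's fitted spread, with known changes added. That simulation held no difference of sex or cell composition, so it cannot show how the fits behave under either.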

Additional observations from a re-analysis of the deposited data

How the results depend on the processing

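Over 60 member results, 20 settings gave 1140 values: 1027 kept their direction and side of the threshold, 23 lost a call, 33 gained one and 57 changed sign, none of the last among called results. Settings that could not be run for a comparison were male libraries only, outside double-null against miR-144/451-null and against Nrf2-null, and only the 2 groups compared, for the average and the interaction.

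The number of members called moved as follows. With DESeq2 it was 3 in Nrf2-null against wild type, 6 in the average and 2 in double-null against Nrf2-null. DESeq2 called 134, 545 and 4153 of all genes there, against 27, 83 and 3850 in the main fit. Library totals alone gave 5 in the average and 2 in double-null against Nrf2-null, and median-ratio factors 1 in the average. Of all genes, library totals called 109 and 3456 there, and median-ratio factors 83. With no low-count filter it was 4 in Nrf2-null against wild type, 2 in double-null against miR-144/451-null, 8 in the average, 1 in miR-144/451-null against wild type, 3 in double-null against Nrf2-null and 2 in the interaction, and the calls over all genes rose too (716 against 27 in Nrf2-null against wild type). The stricter filter gave 1 in the average and 2 in double-null against Nrf2-null, where 58 and 3800 of all genes were called. A sex term gave 0 in Nrf2-null against wild type, 0 in double-null against miR-144/451-null and 1 in the average. There 12, 9 and 30 of all genes were called. Male libraries only gave 0 in double-null against miR-144/451-null (3 of all genes called). Only the 2 groups compared gave 0 there (2 of all genes) and 2 in double-null against Nrf2-null (3588 of all genes). Leaving out 1 library gave 0 to 1 in Nrf2-null against wild type, 0 to 1 in double-null against miR-144/451-null, 1 to 3 in the average, 1 to 2 in double-null against Nrf2-null, and 0 to 0 in the interaction and in miR-144/451-null cells against wild type.

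The replicate block gave 0 members in Nrf2-null against wild type, 0 in double-null against miR-144/451-null and 1 in the average. It called 21, 4 and 43 of all genes there. Deviations of same-numbered libraries from their group means had correlations of -0.111 to 0.287, highest for replicate 1 of double-null and miR-144/451-null. With 2 or 3 libraries a group, these values cannot show whether the numbers pair libraries.

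The log2 fold change of Pir, whose values the choice of genes had used, ranged from -2.05 to -1.67 in the average. In Nrf2-null against wild type its call ended under the block, the sex term and without Nrf2-null replicate 1 or 2 or wild type replicate 3 (log2 fold change -1.31 without the last). In double-null against miR-144/451-null it ended under the block, the sex term, in male libraries, with only the 2 groups and without double-null replicate 1 or 3. That of Srxn1 in double-null against Nrf2-null, also known at the choice, ranged from 1.69 to 2.27.

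Log2 fold changes that changed sign were all uncalled. With library totals alone they were -0.076 for Gclc in Nrf2-null against wild type, -0.095 for Gclm in double-null against miR-144/451-null, 0.090 for Gclc, 0.048 for Gsr and 0.029 for Txnrd1 where miR-144/451-null cells were set against wild type, with -0.076 for Nqo1 in the interaction. The sex term gave Txnrd1 0.30 where miR-144/451-null cells were set against wild type, -0.12 in double-null against Nrf2-null and -0.42 in the interaction, and Osgin1 -0.047 in the interaction. Gclc in miR-144/451-null against wild type was 0.035 with no filter, 0.012 with only the 2 groups and 0.013 without globin genes. In double-null against Nrf2-null, Slc7a11 was 0.059 under the replicate block and 0.029 in male libraries, where Txnrd1 was -0.097. The cause was not tested.

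Leaving out 1 library changed the sign of 20 results. The ranges in Nrf2-null against wild type were -0.083 to 0.12 for Gclc and -1.10 to 0.0047 for Slc7a11; in double-null against miR-144/451-null -0.30 to 0.36 for Hmox1 and -0.12 to 0.34 for Gclm; in the average -0.14 to 0.093 for Gclm and -0.24 to 0.0047 for Gclc. In miR-144/451-null against wild type they were -0.27 to 0.23 for Gclc, -0.27 to 0.10 for Txnrd1, -0.70 to 0.43 for Slc7a11, -0.75 to 0.068 for Pir, -0.70 to 2e-04 for Nqo1 and -0.40 to 0.30 for Gsr. In double-null against Nrf2-null they were -0.54 to 0.35 for Slc7a11 and -0.094 to 0.13 for Txnrd1. In the interaction they were -0.49 to 0.62 for Slc7a11, -0.090 to 0.29 for Txnrd1, -0.33 to 0.35 for Nqo1, -0.71 to 0.091 for Pir, -0.24 to 0.92 for Osgin1 and -0.060 to 0.63 for Gsr. Each group holds 2 or 3 libraries, which limits the precision.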
